A study of Homo sapiens with 12 samples.

Results

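The genes described here were 50 genes of the short arm of human chromosome 18 (18p), lying between USP14 and ZNF519. They were selected on their RNA level, which was lower in one edited mast cell clone, HMC-1.3 clone 2, than in the other sublines of the same cell line. All 50 were found in the deposited tables, which list 58381 genes. A filter on low counts kept 41 of the 50, and 15944 genes in all. The difference between clone 2 and the other sublines therefore chose these genes, and its size is given below as a description without a test.

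HMC-1 is an established human mast cell line of leukaemic origin whose growth is driven by mutant KIT, the receptor for stem cell factor. Polyadenylated RNA of 4 groups was sequenced, with 3 libraries in each. HMC-1.1 carries the KIT mutation V560G, and HMC-1.2 carries V560G and D816V. HMC-1.3 clone 1 and HMC-1.3 clone 2 were made from HMC-1.2 by CRISPR/Cas9 reversal of V560G and carry D816V. Each HMC-1.3 group is 1 clone, so a property of the edit and a property of the clone cannot be told apart within a group. The methods describe the 3 samples of each line as replicate wells plated for RNA. Nothing in the labels or the methods says that they came from separate thaws or passages. The p-values below therefore measure only the spread between these libraries.

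A chromosome arm carries genes of unrelated function that share position. Genes side by side on an arm pass together to the daughter cells at division, while each is transcribed from its own promoter. Chromosome 18 is gene-poor, and its short arm holds several housekeeping genes used by nearly every cell, among them subunits of the kinetochore, the nuclear pore, the proteasome assembly pathway and mitochondrial complex I. It also holds genes that mast cells hardly use, such as receptors and matrix proteins of nerve and connective tissue. The tables hold RNA only, and the DNA of the arm was not measured here.

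Library totals ranged from 29225900 to 43181402 counts. Of 10 mast cell markers, 8 had a mean of at least 1 FPKM (a read level adjusted for gene length and depth), including KIT, HDC and GATA2, while the IgE receptor gene MS4A2 stayed between 0.0833 and 0.353 FPKM. Of 9 markers of other blood cells, 2 reached 1 FPKM, and of 6 epithelial and fibroblast markers, only KRT19 did as a mean over all libraries, with 176, 437, 172 and 216 FPKM for HMC-1.1, HMC-1.2, clone 1 and clone 2. KRT18 was at 7.85 FPKM in clone 2 replicate 3 and at most 0.15 FPKM in each of the other 11 libraries. The part of these genes in the results below was not tested. A per-gene count cannot show the edited KIT base, so the genotype of the libraries was not checked. Across all genes kept, 1.01% passed the test when clone 1 was set against HMC-1.1. Set against HMC-1.2, the subline it was derived from, clone 1 differed at 20% of genes. A gene passed (was called) when edgeR's quasi-likelihood test gave an adjusted p under 0.05 and a fold over 1.5.

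Summed over all 50 genes, the level was 3109 ± 34 CPM (counts scaled to library size with TMM factors, mean ± SD, n = 3) in HMC-1.1 and 3248 ± 55 CPM in HMC-1.2. It was 3086 ± 16 CPM in clone 1 and 1603 ± 24 CPM in clone 2. The 3 clone 2 libraries stood at 1625, 1607 and 1578 CPM, and the other 9 libraries lay between 3074 and 3311 CPM. In each library the ratio of each of the 41 genes kept to its HMC-1.1 mean was also taken. The median of these log2 ratios was −1.03, −0.97 and −0.96 in the clone 2 libraries and between −0.01 and 0.12 in the others. In bulk RNA, fewer cells with the transcript and less transcript per cell cannot be told apart.

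The median log2 difference of the 41 genes was −1.01 in clone 2 against HMC-1.1, a fold of 0.497, with quartiles of −1.16 and −0.86. Against HMC-1.2 the median was −1.07, a fold of 0.475, and against clone 1 it was −0.97, a fold of 0.509. Over all 15944 genes the same medians lay within 0.01 of 0. These comparisons share the clone 2 libraries, so they are not separate measurements of clone 2. Of the 41 genes, 37 were lower and called against HMC-1.1, 39 against HMC-1.2 and 35 against clone 1. Over all genes, 5.15%, 8.51% and 8.38% were lower and called in these comparisons, and 8.19%, 16.5% and 12.6% were called in either direction. In 37 of the 41 genes every clone 2 library lay below each of the other 9 libraries, a pattern found in 7.87% of all genes. Without clone 2 replicate 3, the library with KRT18, the genes called in either direction were 38, 41 and 35, against 38, 40 and 35 with it. Nothing is read from these counts, since the same values chose the genes.

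**Figure D1:**
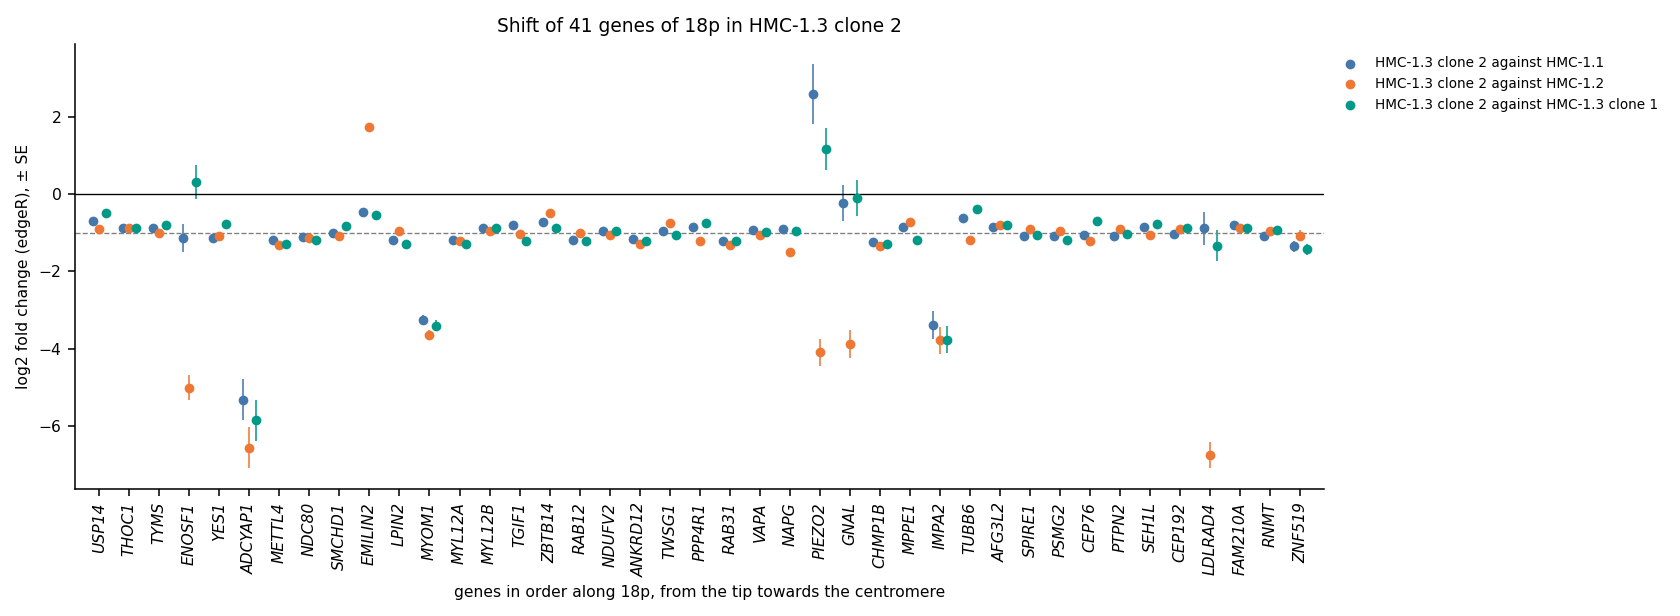
Log2 fold change (edgeR, ± SE) of the 41 genes kept, in clone 2 against HMC-1.1 (blue), HMC-1.2 (orange) and clone 1 (green). The genes run from the tip of 18p towards the centromere and the dashed line is at −1. Of the 41 genes, 24 lie within 0.3 of −1 in all 3 comparisons, ADCYAP1, MYOM1 and IMPA2 lie far below it, and ENOSF1, EMILIN2 and PIEZO2 lie above 0 in at least 1.

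The spread among the genes depended on their level. Among the 34 genes averaging 10 CPM or more, the differences in clone 2 against HMC-1.1 ran from −1.35 to −0.48 with an SD of 0.20 on the log2 scale. Against clone 1 they ran from −1.43 to −0.39 with an SD of 0.25, and against HMC-1.2 from −1.5 to 1.74 with an SD of 0.52, where EMILIN2 was the highest. With the genes of lower level included, the SD of the 41 genes was 1.05, 1.07 and 1.63 against HMC-1.1, clone 1 and HMC-1.2. Over all 15944 genes, likewise of any level, it was 0.58, 0.64 and 0.9. The SD of all genes averaging 10 CPM or more was not taken, so the 34 genes have no like value beside them. Position made little difference. With the genes cut along the arm into a first, a middle and a last stretch of 14, 14 and 13, the medians were −1.12, −0.92 and −1.05 against HMC-1.1. Across the 34 genes, Pearson's r between order on the arm and log2 difference was −0.17, −0.16 and −0.09 against HMC-1.1, HMC-1.2 and clone 1. These correlations are over genes of the same libraries and are given as a description.

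On the length-scaled FPKM, the highest of these genes in HMC-1.1 was VAPA at 378 ± 6.86 FPKM (SD, n = 3). MYL12A followed at 330 ± 9.42 FPKM, MYL12B at 275 ± 10.2 FPKM, TYMS at 254 ± 3.87 FPKM and NDUFV2 at 172 ± 7 FPKM. In clone 2 the same genes stood at 201 ± 7.55, 143 ± 4.26, 149 ± 10.1, 135 ± 0.525 and 87.0 ± 7.06 FPKM, so MYL12A and MYL12B no longer differed beyond their spread. The values that follow are CPM, which compare libraries for the same gene.

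Genes of cell division and the nuclear pore were 4, and their differences in clone 2 lay between −1.23 and −0.71. NDC80 (chr18:2571557-2616635) encodes a kinetochore subunit that binds spindle microtubules. It was at 73.3, 72.5 and 69.4 CPM in HMC-1.1, 75.2, 73.4 and 69.2 in HMC-1.2, 77.4, 76.5 and 74.4 in clone 1, and 35.0, 31.3 and 33.2 in clone 2. No clone 2 library reached any of the other 9, and the log2 difference was −1.11 ± 0.04 (SE) against HMC-1.1. SEH1L encodes a subunit of the Y-shaped scaffold of the nuclear pore. Its CPM were 76.5, 77.0 and 72.6 in HMC-1.1, 89.3, 85.5 and 85.7 in HMC-1.2, 70.6, 72.4 and 69.5 in clone 1, and 41.2, 41.7 and 41.8 in clone 2. CEP192, which organises the material around the centrioles, had 44.9, 46.0 and 41.7 CPM in HMC-1.1, 42.4, 40.2 and 40.6 in HMC-1.2, 39.3, 38.3 and 43 in clone 1, and 20.7, 21.5 and 22.8 in clone 2. CEP76, which limits centriole duplication, had a difference of −1.05 ± 0.06 against HMC-1.1 and −0.71 ± 0.06 against clone 1.

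Nuclear and RNA-processing genes kept numbered 8, with medians of −1.05, −1.06 and −1.08 against HMC-1.1, HMC-1.2 and clone 1. SMCHD1 is a chromatin protein that maintains silencing of the inactive X chromosome and of repeat arrays. Its CPM were 91.3, 103 and 91.9 in HMC-1.1, 99.4, 93.7 and 108 in HMC-1.2, 78.4, 80.3 and 95.5 in clone 1, and 44.6, 48.6 and 48.8 in clone 2. The HMC-1.1, HMC-1.2 and clone 1 libraries overlapped, and no clone 2 library reached them. RNMT, the methyltransferase that completes the messenger RNA cap, was at 63.2, 64.3 and 57.7 CPM in HMC-1.1, 56.3, 53.7 and 58.0 in HMC-1.2, 54.0, 54.5 and 57.0 in clone 1, and 27.7, 29.9 and 28.8 in clone 2. THOC1, a subunit of the THO complex that couples transcription to export, gave nearly the same difference in all 3 comparisons, −0.88 ± 0.05, −0.87 ± 0.05 and −0.87 ± 0.05. METTL4, an RNA methyltransferase, and ANKRD12, a nuclear ankyrin-repeat protein, were at −1.2 ± 0.06 and −1.16 ± 0.07 against HMC-1.1. The repressors TGIF1 and ZBTB14 were at −0.81 ± 0.04 and −0.72 ± 0.05, and ZNF519 at −1.35 ± 0.14. ZBTB14 had the smallest difference of the 8 against HMC-1.2, −0.50 ± 0.06, which missed the fold threshold.

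Among 9 genes of protein turnover, mitochondria and metabolism, TYMS (chr18:657653-673578) encodes thymidylate synthase, which makes the thymidine nucleotide for DNA synthesis. TYMS was at 319, 313 and 320 CPM in HMC-1.1, 365, 355 and 336 in HMC-1.2, 296, 308 and 301 in clone 1, and 178, 171 and 171 in clone 2. Its difference was −0.87 ± 0.03, −1.02 ± 0.03 and −0.80 ± 0.03 against the 3 groups in that order. USP14, a deubiquitinating enzyme of the proteasome, had 134, 136 and 130 CPM in HMC-1.1, 156, 153 and 155 in HMC-1.2, 114, 116 and 120 in clone 1, and 81.0, 83.6 and 83.7 in clone 2. USP14 had one of the smallest differences against clone 1, −0.50 ± 0.03, a fold of 0.708. PSMG2, a chaperone of proteasome assembly, was at 66.5, 60.7 and 64.6 CPM in HMC-1.1, 59.8, 60.4 and 55.1 in HMC-1.2, 66.7, 70.6 and 66.7 in clone 1, and 31.3, 29.8 and 28.8 in clone 2.

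The mitochondrial genes of this group behaved like the rest. NDUFV2, a subunit of the NADH-oxidising module of complex I, was at 122, 112 and 115 CPM in HMC-1.1, 127, 125 and 123 in HMC-1.2, 118, 120 and 112 in clone 1, and 63.1, 62.0 and 53.5 in clone 2. AFG3L2, a subunit of the protease that removes misfolded proteins from the inner membrane, had 128, 127 and 122 CPM in HMC-1.1, 124, 124 and 117 in HMC-1.2, 122, 124 and 117 in clone 1, and 69.5, 68.4 and 70.6 in clone 2. For AFG3L2 the 3 groups outside clone 2 overlapped throughout. FAM210A, a mitochondrial membrane protein, was at −0.80 ± 0.05 against HMC-1.1. LPIN2, a phosphatidate phosphatase of lipid synthesis, was at 52.3, 50.5 and 45.9 CPM in HMC-1.1, 43, 39.8 and 42.8 in HMC-1.2, 52.1, 52.5 and 54.9 in clone 1, and 21.7, 21.5 and 21.6 in clone 2.

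All 6 genes of membrane trafficking were lower in clone 2 in each comparison. VAPA (chr18:9914016-9960021), which tethers the endoplasmic reticulum to other membranes, was at 451, 444 and 437 CPM in HMC-1.1, 493, 476 and 488 in HMC-1.2, 465, 458 and 455 in clone 1, and 238, 233 and 228 in clone 2. RAB31, a small GTPase of endosomal transport, had 190, 179 and 183 CPM in HMC-1.1, 199, 193 and 197 in HMC-1.2, 182, 177 and 186 in clone 1, and 79.0, 79.3 and 77.5 in clone 2. Its difference of −1.23 ± 0.03, −1.32 ± 0.03 and −1.21 ± 0.03 was larger than that of VAPA, at −0.93 ± 0.03, −1.06 ± 0.03 and −0.98 ± 0.03. CHMP1B, a subunit of the ESCRT-III machinery that cuts membrane necks, was at 43.2, 42.1 and 43.5 CPM in HMC-1.1, 48.3, 45.8 and 43.9 in HMC-1.2, 45.3, 46.4 and 41.6 in clone 1, and 18.4, 18.2 and 18 in clone 2. RAB12, another small GTPase, was at −1.2 ± 0.09 against HMC-1.1. MPPE1, which remodels GPI anchors during transport, was at −0.86 ± 0.05. NAPG, which helps to take SNARE complexes apart after fusion, was at −0.91 ± 0.05 and is described further with the tests between the other sublines.

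Of the cytoskeletal genes, MYL12A and MYL12B (chr18:3247481-3256236 and chr18:3261479-3278461) lie side by side and encode regulatory light chains of non-muscle myosin II. MYL12A was at 274, 255 and 277 CPM in HMC-1.1, 286, 275 and 266 in HMC-1.2, 293, 297 and 277 in clone 1, and 121, 120 and 112 in clone 2. MYL12B had 266, 250 and 276 CPM in HMC-1.1, 289, 283 and 270 in HMC-1.2, 276, 267 and 254 in clone 1, and 153, 147 and 133 in clone 2. The differences of MYL12A, between −1.29 and −1.19, were larger than those of MYL12B, between −0.96 and −0.87. The coding sequences of the pair match at 95.2% of bases, and 3 of the 884 stretches of 75 bases in the MYL12A transcript also occur in MYL12B, so few stretches of that length are shared. SPIRE1, an actin nucleator, was at −1.1 ± 0.05 against HMC-1.1. TUBB6, a class of beta-tubulin, had the smallest difference of the genes above 10 CPM against clone 1, −0.39 ± 0.04.

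MYOM1 encodes myomesin, a protein of the muscle M band, and was far lower in clone 2 than its neighbours on the arm. It was at 10.1, 10.9 and 10.5 CPM in HMC-1.1, 14.9, 12.3 and 14.2 in HMC-1.2, 12.7, 10.5 and 11.6 in clone 1, and 1.11, 1.18 and 0.994 in clone 2. The log2 difference was −3.26 ± 0.14, −3.66 ± 0.13 and −3.41 ± 0.14 against the 3 groups. IMPA2, an inositol monophosphatase, was at 2.26, 1.98 and 2.17 CPM in HMC-1.1, 2.96, 2.28 and 3.10 in HMC-1.2, 3.12, 2.62 and 2.56 in clone 1, and 0.38, 0.154 and 0.0925 in clone 2. These 3 libraries of clone 2 hold 13, 6 and 4 counts of IMPA2, and its difference against HMC-1.2 of −3.78 ± 0.35 became −4.47 without clone 2 replicate 1. ADCYAP1, which encodes the neuropeptide PACAP, had 54, 59 and 57 counts in HMC-1.1, 133, 95 and 114 in HMC-1.2, 83, 80 and 74 in clone 1, and 1, 1 and 2 in clone 2. Set against a limit of 3 counts in each clone 2 library, ADCYAP1 was at least 19.5-fold lower than in HMC-1.1, 46.4-fold lower than in HMC-1.2 and 28.1-fold lower than in clone 1. ADCYAP1, MYOM1 and IMPA2 were the 3 genes with a difference under −1.5 in every comparison.

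Signalling genes expressed above 10 CPM were YES1, PPP4R1 and PTPN2. YES1, a kinase of the Src family, was at 117, 120 and 115 CPM in HMC-1.1, 111, 110 and 115 in HMC-1.2, 91.2, 88.0 and 94.4 in clone 1, and 51.0, 52.7 and 54.7 in clone 2. PPP4R1, a regulatory subunit of protein phosphatase 4, had 72.3, 69.1 and 66.4 CPM in HMC-1.1, 90.3, 88.6 and 91.0 in HMC-1.2, 66.1, 63.1 and 64.8 in clone 1, and 38.4, 39.3 and 37.7 in clone 2. Both showed different levels among the 3 other groups, with clone 1 the lowest of them. PTPN2, a phosphatase that acts on JAK and STAT proteins, was at −1.09 ± 0.05, −0.92 ± 0.05 and −1.04 ± 0.05. Of the secreted proteins, TWSG1, which binds bone morphogenetic proteins, was at 42.9, 41.2 and 43.4 CPM in HMC-1.1, 38.2, 36.8 and 35.6 in HMC-1.2, 46.6, 43.4 and 47.2 in clone 1, and 23.7, 20.5 and 21.9 in clone 2.

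The pattern was not followed by 4 of the 41 genes, EMILIN2, ENOSF1, PIEZO2 and GNAL. EMILIN2 (chr18:2847006-2916003), an extracellular matrix glycoprotein, was at 105, 93.9 and 100 CPM in HMC-1.1, 22.1, 21.4 and 20.4 in HMC-1.2, 106, 101 and 106 in clone 1, and 69.9, 72.6 and 71.6 in clone 2. Clone 2 thus lay below HMC-1.1 and clone 1, at −0.48 ± 0.04 and −0.55 ± 0.04, and above HMC-1.2, at 1.74 ± 0.05. ENOSF1 (chr18:670318-712662), an enolase family enzyme encoded on the opposite strand to TYMS, was at 0.345, 0.577 and 0.444 CPM in HMC-1.1, 6.90, 6.80 and 6.48 in HMC-1.2, 0.110, 0.214 and 0.170 in clone 1, and 0.0877, 0.205 and 0.301 in clone 2. Clone 2 and clone 1 overlapped, and their difference of 0.30 ± 0.44 was smaller than its error.

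PIEZO2 and GNAL rested on few counts outside HMC-1.2, and these 2 of the 41 genes passed the filter only through HMC-1.2. PIEZO2 (chr18:10666483-11149569), a mechanically gated channel of sensory neurons, had 1, 2 and 1 counts in HMC-1.1, 140, 101 and 140 in HMC-1.2, 1, 3 and 7 in clone 1, and 7, 7 and 13 in clone 2. Its clone 2 level was at least 2.84-fold higher than in HMC-1.1, overlapped clone 1, and was far below HMC-1.2, at −4.10 ± 0.35. GNAL, the alpha subunit of the olfactory G protein, had 4, 7 and 7 counts in HMC-1.1, 68, 60 and 67 in HMC-1.2, 6, 4 and 6 in clone 1, and 3, 5 and 8 in clone 2. Its clone 2 libraries overlapped those of HMC-1.1 and clone 1, with differences of −0.23 ± 0.46 and −0.10 ± 0.47. LDLRAD4, a membrane protein that dampens TGF-beta signalling, had 14, 10 and 12 counts in HMC-1.1, 672, 547 and 567 in HMC-1.2, 10, 24 and 14 in clone 1, and 2, 8 and 10 in clone 2. Scaled to library size, its clone 2 libraries lay below all others, on few counts.

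**Figure D2:**
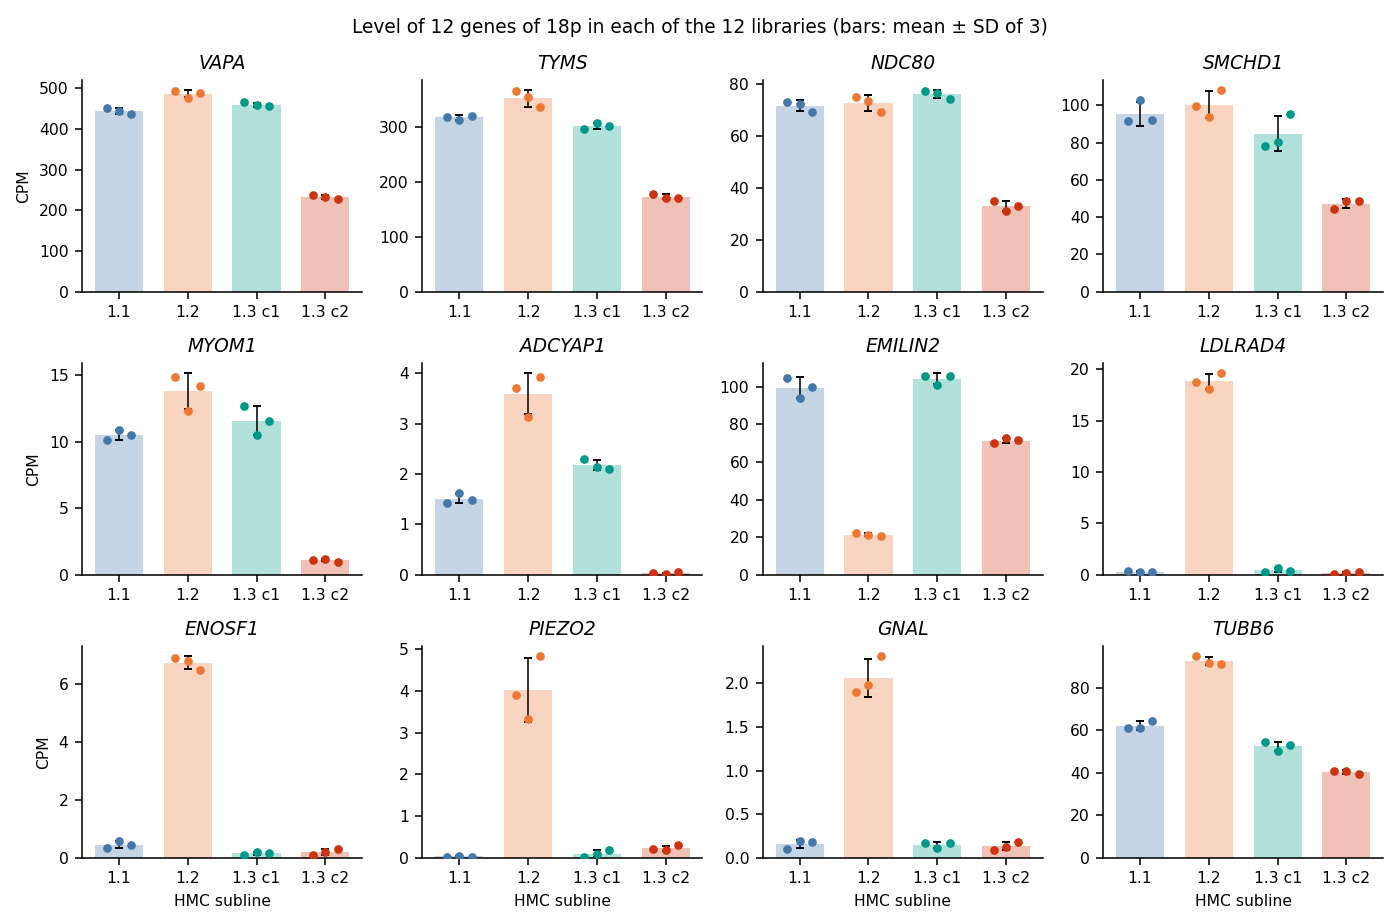
Level in CPM of 12 genes of 18p in each library (points), with the mean ± SD of 3 libraries (bars and error bars), for HMC-1.1, HMC-1.2, clone 1 (1.3 c1) and clone 2 (1.3 c2). VAPA, TYMS, NDC80 and SMCHD1 are lower in clone 2 alone, whereas LDLRAD4, ENOSF1, PIEZO2 and GNAL are high in HMC-1.2 alone and EMILIN2 is low there.

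The 9 genes removed by the filter were close to or at 0 in every library. L3MBTL4 and APCDD1 had no count in any library. COLEC12, EPB41L3 and LAMA1 had at most 2, 1 and 1 counts, each in 1 library, and PTPRM at most 5. ARHGAP28 and DLGAP1 reached 12 and 18 counts. CLUL1 had 0 counts in each clone 2 library and between 1 and 12 in each of the other 9.

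How the same genes varied among the sublines without clone 2 was not used in choosing them and was tested with edgeR's quasi-likelihood test over all 15944 genes. Between HMC-1.1 and HMC-1.2, 7 of the 41 genes were called, against 17.6% of all genes. Between clone 1 and HMC-1.2 it was again 7 of 41, against 20% of all genes, and between clone 1 and HMC-1.1 it was 1 of 41, against 1.01%. In both comparisons with HMC-1.2 the 7 include PIEZO2 and GNAL, which had to differ, since they passed the filter only through HMC-1.2. The median log2 differences of the 41 genes were −0.09, −0.05 and 0.05 in these comparisons. Both comparisons with HMC-1.2 share its 3 libraries.

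Against HMC-1.2, 5 genes were lower in both HMC-1.1 and clone 1 and 1 gene was higher in both. LDLRAD4 was lower in HMC-1.1 by a log2 difference of −5.86 ± 0.27 (adjusted p = 1.7e-13, edgeR) and in clone 1 by −5.40 ± 0.24 (adjusted p = 2.6e-13). Given as a description, PIEZO2 was at least 50-fold lower in HMC-1.1, and its clone 1 difference from HMC-1.2 was −5.27 ± 0.48, which became −6.12 without clone 1 replicate 3. ENOSF1 was lower by −3.88 ± 0.25 in HMC-1.1 (adjusted p = 2.5e-10, edgeR) and by −5.32 ± 0.35 in clone 1 (adjusted p = 2.9e-11). These are the genes listed above as low in clone 2 against HMC-1.2 as well. GNAL, likewise a description, was at −3.66 ± 0.36 in HMC-1.1 and −3.78 ± 0.37 in clone 1. ADCYAP1 was lower by −1.24 ± 0.16 in HMC-1.1 (adjusted p = 3.2e-06, edgeR) and by −0.72 ± 0.15 in clone 1 (adjusted p = 5e-04). EMILIN2 was the gene that was higher, by 2.23 ± 0.05 in HMC-1.1 (adjusted p = 2.3e-16, edgeR) and by 2.29 ± 0.05 in clone 1 (adjusted p = 1.9e-16).

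TUBB6 and NAPG were each called in 1 comparison, and their libraries did not overlap in the other either. TUBB6 was at 61.0, 61.0 and 64.4 CPM in HMC-1.1, 94.7, 91.4 and 91.3 in HMC-1.2, 54.3, 50.2 and 53.1 in clone 1, and 40.6, 40.8 and 39.2 in clone 2. The TUBB6 difference from HMC-1.2 was −0.82 ± 0.04 in clone 1 (adjusted p = 1.1e-11, edgeR), which passed, and −0.57 ± 0.04 in HMC-1.1, which missed the fold threshold. NAPG was at 21.3, 20.9 and 20.6 CPM in HMC-1.1, 32.4, 31.8 and 30.4 in HMC-1.2, 21.8, 21.0 and 22.7 in clone 1, and 10.8, 11.4 and 11.3 in clone 2. The NAPG difference was −0.59 ± 0.05 in HMC-1.1 (adjusted p = 1.8e-08, edgeR), which passed, and −0.53 ± 0.05 in clone 1, which did not. Without HMC-1.1 replicate 3 or HMC-1.2 replicate 1 the NAPG value became −0.58 or −0.57 and missed the fold threshold. The call was also lost without TMM factors (−0.56), with a term for libraries labelled resent (−0.58) and with limma on log2(FPKM + 1) (−0.54). ENOSF1 was the 1 gene called between clone 1 and HMC-1.1, at −1.44 ± 0.39 (adjusted p = 0.013, edgeR). It rested on 13 to 21 counts in HMC-1.1 and 4 to 8 in clone 1, and without HMC-1.1 replicate 2 or clone 1 replicate 1 the adjusted p was 0.057 or 0.059. Over all alternatives it ran from 0.0024 to 0.26.

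**Figure D3:**
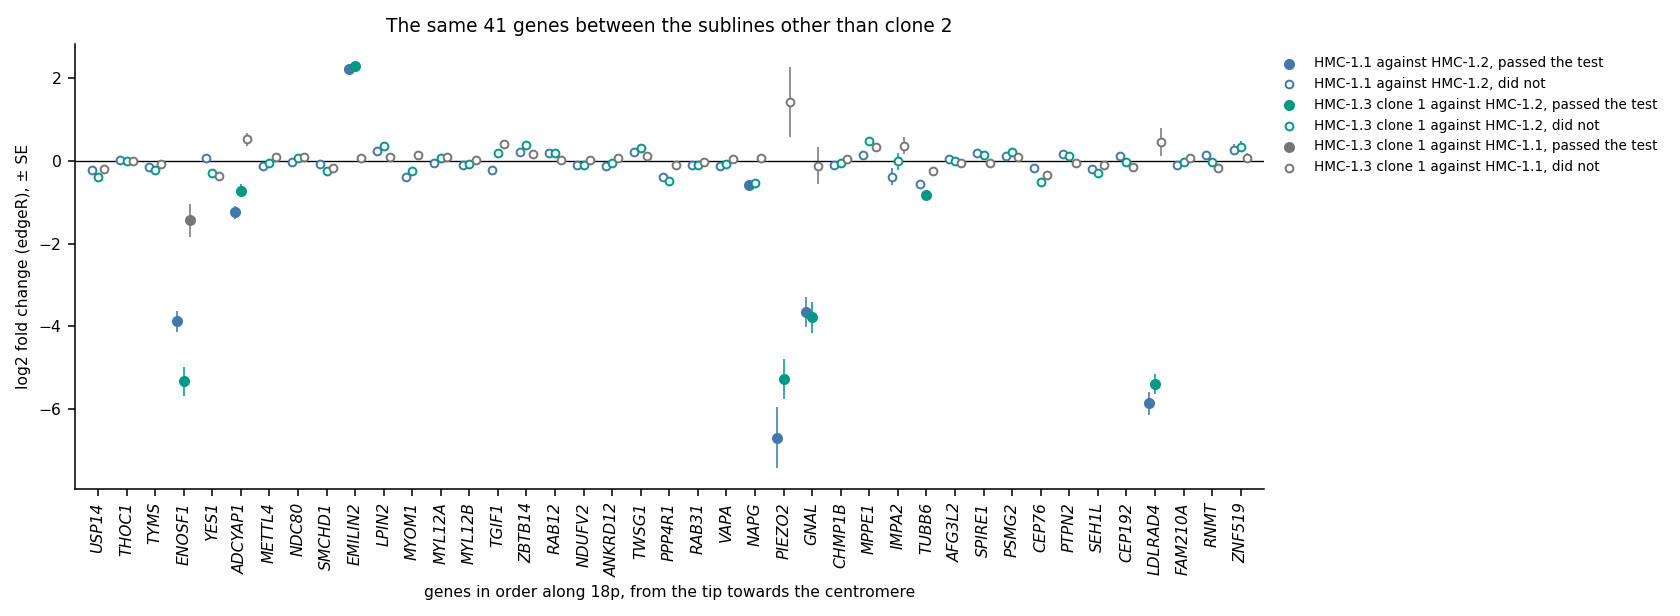
Log2 fold change (edgeR, ± SE) of the same 41 genes between HMC-1.1 and HMC-1.2 (blue), clone 1 and HMC-1.2 (green) and clone 1 and HMC-1.1 (grey), in gene order along 18p. Filled points passed the test: 7, 7 and 1 genes. Most open points lie close to 0.

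Several of these genes overlap a neighbour on the opposite strand. The methods name a stranded library kit, but whether the counting used strand is not given in the sources used here. The pairs are USP14 with THOC1, TYMS with ENOSF1, EMILIN2 with LPIN2, GNAL with MPPE1, TUBB6 with AFG3L2, PSMG2 with SPIRE1 and CEP76, and RNMT with FAM210A. CHMP1B lies within GNAL on the same strand. Values of the less abundant member of a pair, above all ENOSF1 and GNAL, are uncertain for that reason.

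Between USP14 and ZNF519, 23 further genes passed the count filter, of which 4 are protein coding. Their median differences in clone 2 were −0.98, −1.07 and −1.08 against HMC-1.1, HMC-1.2 and clone 1, close to those of the 41 genes. They lie in the stretch that was chosen for its shift, so they are a description as well. The 157 genes of the long arm, 18q, had medians of 0.53, 0.59 and 0.55 in the same comparisons. Their summed level was 11272 to 11443 CPM in the clone 2 libraries and 7326 to 7890 CPM in the others. Between clone 1 and HMC-1.1 the medians were 0.05 for the 41 genes of 18p and 0.03 for 18q.

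**Figure D4:**
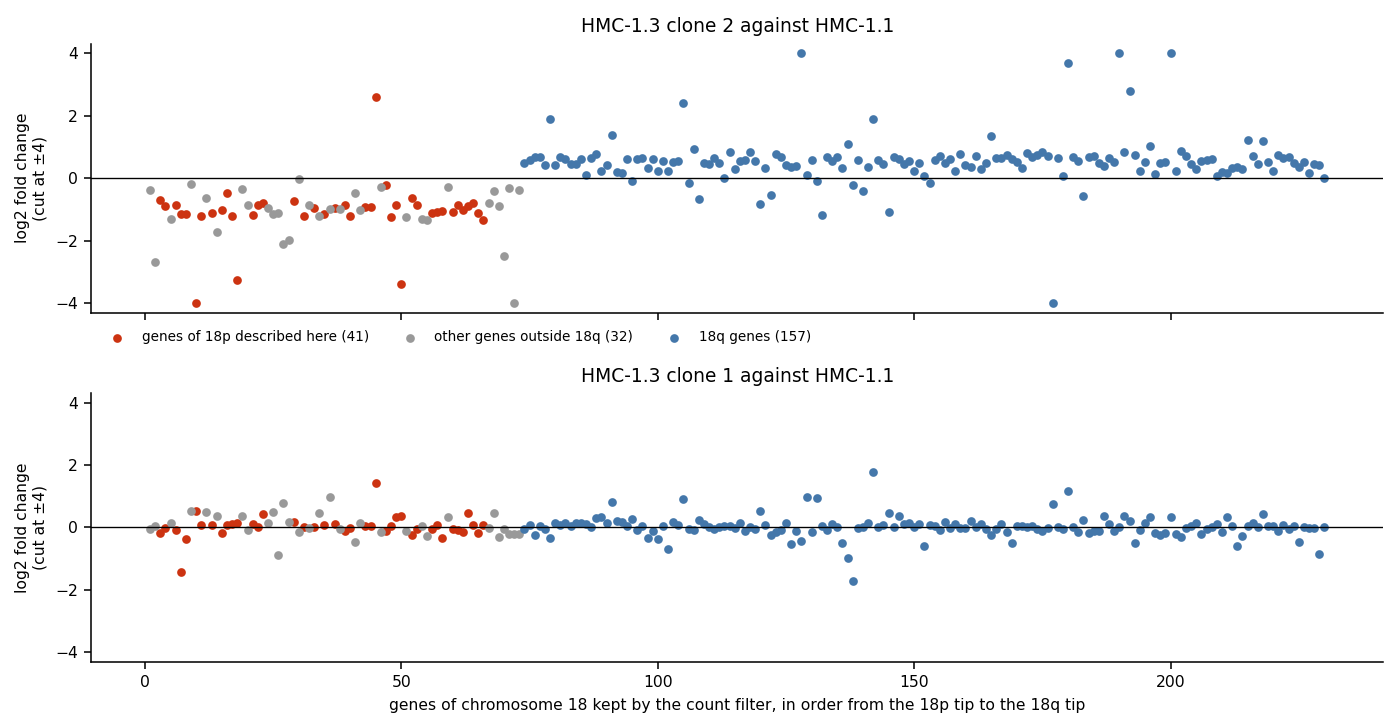
Log2 fold change of the genes of chromosome 18 kept by the filter, in order from the tip of 18p to the tip of 18q, in clone 2 (top) and clone 1 (bottom) against HMC-1.1. Values beyond ±4 are drawn at ±4. In clone 2 the 18p genes lie around −1.01 and the 157 genes of 18q around 0.53, whereas both arms lie around 0 in clone 1.

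The products of many 18p genes work in complexes whose other subunits are encoded elsewhere. A list of 60 such partner genes in 14 groups was compared in the same way, and 58 passed the filter. The rule for the 18p genes did not use the partners, though their list was drawn up with earlier results of these data known, and edgeR's test was applied to them. Their median log2 difference in clone 2 was 0.06 against HMC-1.1, 0.01 against HMC-1.2 and 0.09 against clone 1. Against HMC-1.1, edgeR called 0 of 58 and DESeq2 also 0, where 8.19% of all genes were called. At an unadjusted p under 0.05 there were 34 of 58, a count not taken over all genes, so nothing is read from it. At an adjusted p under 0.05 without the fold threshold there were 28, against 5745 of all 15944 genes. None of the 58 was below −0.39 on the log2 scale. Against HMC-1.2 and against clone 1, 1 of 58 was called in each, where 16.5% and 12.6% of all genes were called.

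For the kinetochore, NDC80 stood at −1.11 ± 0.04 against HMC-1.1, while its partners NUF2, SPC24 and SPC25 stood at −0.09, −0.02 and 0.13. For the nuclear pore, SEH1L was at −0.86 ± 0.04 and the 8 other Y-complex genes lay between −0.04 and 0.19. THOC1 was at −0.88 ± 0.05 and the 5 other THO genes lay between −0.08 and 0.15. In the NADH-oxidising module of complex I, NDUFV2 was at −0.97 ± 0.05 and the 7 other genes lay between −0.10 and 0.09. AFG3L2 was at −0.86 ± 0.04, and SPG7, which forms the same protease with it, was at 0.24. None of these partners was called against HMC-1.1.

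The partner genes with the largest differences were few. CCP110, a centriole cap protein, was called against HMC-1.2, at 0.96 ± 0.04 (adjusted p = 9.6e-12, edgeR), with means of 84.8 CPM in HMC-1.2 and 164 CPM in clone 2, but also 178 CPM in HMC-1.1 and 180 CPM in clone 1. SHMT2, which supplies one-carbon units to the thymidylate cycle in mitochondria, was called against clone 1, at −0.63 ± 0.03 (adjusted p = 4.1e-11, edgeR). Against HMC-1.1 and HMC-1.2 SHMT2 was at −0.39 and −0.24. NUP107 of the nuclear pore was at 0.51 ± 0.03 against HMC-1.2, and POMP, a proteasome maturation factor, was at 0.52 ± 0.04 against clone 1, and both missed the fold threshold.

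**Figure D5:**
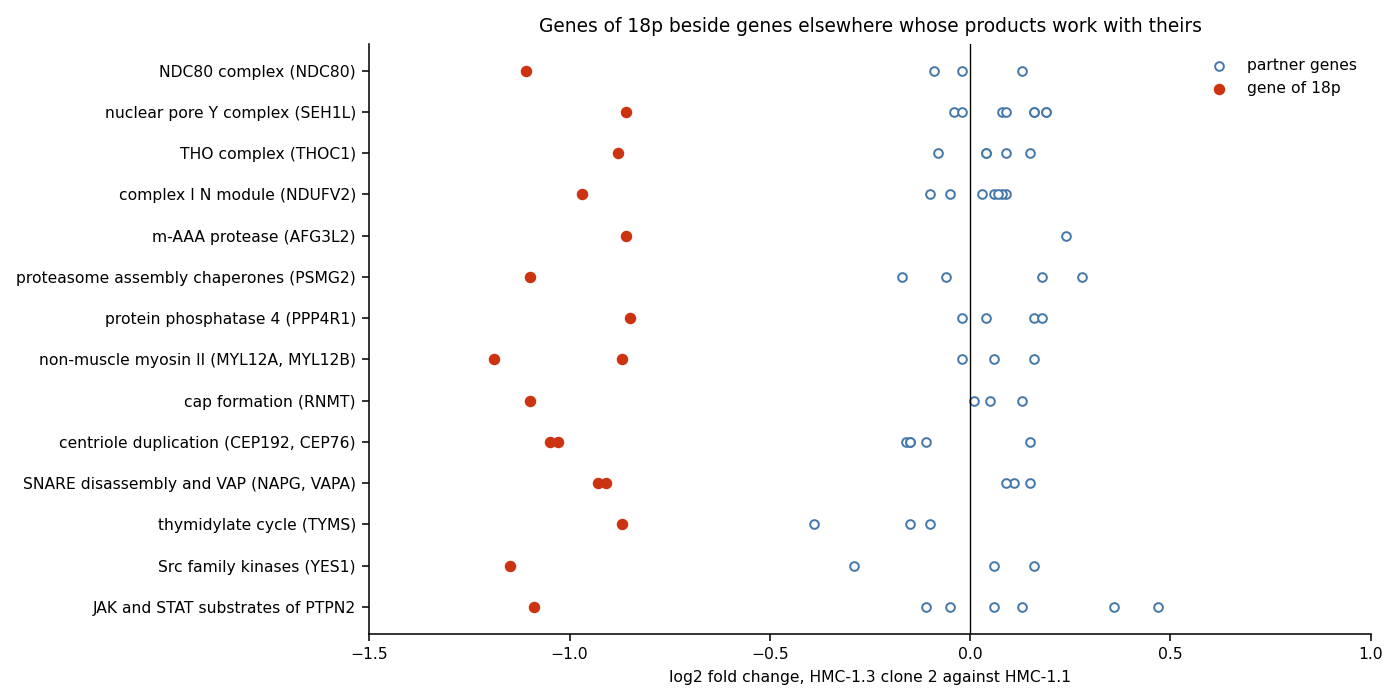
Log2 fold change in clone 2 against HMC-1.1 of genes of 18p (filled) and of the 58 partner genes elsewhere in the genome (open), by complex or pathway. The 18p genes lie between −1.19 and −0.85, and no partner gene lies below −0.39.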

How the data were processed

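RNA-seq of polyadenylated RNA from 12 libraries was used, 3 per group, grouped by their labels. Per the labels and the methods, the authors used cutadapt 2.10 for trimming, STAR 2.5.3 for alignment to hg38 and RSEM 1.3.0 for counting per gene. The deposited expected counts are not normalized, and 7.39% of them are not whole numbers, so they were rounded. The deposited FPKM values were scaled by the authors for length and depth. Gene positions are those of Gencode 44 on GRCh38, the same build.

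The test was edgeR 4.0.16 (R 4.3.3), quasi-likelihood, with TMM factors (0.974 to 1.024), the 15944 genes kept by filterByExpr and the 4 groups as terms. P-values were adjusted by Benjamini and Hochberg over all of these genes in each comparison. CPM are counts scaled to the TMM-adjusted library size. For groups without any library over 3 counts, folds are bounds against 3 counts per library and cover counting error only. The script was tested on simulated data.

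The 50 genes, their roles, the partner genes and the markers were chosen with earlier results of these data known. Values in every library are given for the 20 genes with the highest mean CPM, those that did not follow the shift and those called without clone 2, and other genes are given by difference or range. Partners are named when called or among the 2 largest differences of a comparison, and some of them are not reported here by name. Alternatives were DESeq2 1.42.0, limma 3.58.1 on log2(FPKM + 1) and log2(FPKM + 0.1), other scaling, filters and samples in the fit, a replicate block, a term for libraries labelled as resent, no fold threshold, and leaving out each library. Libraries of a group differed beyond sampling noise, with a chi-square of 2.88 to 8.01 per degree of freedom. No sequence is printed.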

Additional observations from a re-analysis of the deposited data

Results flagged for a closer look

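For 9 genes of 18p every clone 1 library lay above the range of HMC-1.2 and every clone 2 library below it. Both clones were derived from HMC-1.2. The clone 2 side came with the choice of the genes, since clone 2 lay below HMC-1.2 in 40 of the 41 genes kept. Clone 1 lay above HMC-1.2 in 10 of the 41 and below it in 16. How many of all genes show the pattern was not counted, nor how many lie above or below HMC-1.2 in this way. Nothing is read from these counts. In 7 of the 9 genes the clone 1 value had an adjusted p under 0.05 (edgeR), and these are given first. Of all 15944 genes, 9463 had one in clone 1 against HMC-1.2, so such values were common. LPIN2 was at 0.35 on the log2 scale in clone 1 and −0.95 in clone 2 against HMC-1.2. TGIF1 was at 0.19 and −1.04, ZBTB14 at 0.38 and −0.50, and TWSG1 at 0.31 and −0.74. MPPE1 was at 0.47 and −0.72, PSMG2 at 0.22 and −0.97, and ZNF519 at 0.34 and −1.08. The others, RAB12 and PTPN2, had an adjusted p of 0.053 and 0.058 in clone 1 (edgeR). None of the 9 clone 1 values reached the fold threshold. The difference between the clones was not tested, since the clone 2 values chose these genes, and both values share the HMC-1.2 libraries.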

How the results depend on the processing

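The median log2 difference of the 41 genes in clone 2 stayed between −1.06 and −0.88 against HMC-1.1, between −1.08 and −0.95 against HMC-1.2 and between −1.01 and −0.86 against clone 1 under all alternatives run. Without the fold threshold, 25 of the 41 genes had an adjusted p under 0.05 between HMC-1.1 and HMC-1.2. It was 26 between clone 1 and HMC-1.2 and 10 between clone 1 and HMC-1.1. Of all 15944 genes, 8562, 9463 and 2983 did so in these comparisons, so such differences were common among all genes. The partner genes were 28, 31 and 36 of 58 in clone 2 against HMC-1.1, HMC-1.2 and clone 1. Of all genes, 5745, 7739 and 8011 did so there. Without the filter on low counts the partner calls were 2, 2 and 3. The share of all genes called under that setting was not taken, so nothing is read from these calls. The single call between clone 1 and HMC-1.1, ENOSF1, became 0 with limma on log2(FPKM + 1) and 0 with limma on log2(FPKM + 0.1). Leaving out 1 library at a time gave 0 to 1 calls there. Of 240 values of single genes in comparisons without clone 2, 12 lost their call and 228 kept it, and no direction reversed. They include PIEZO2 and GNAL against HMC-1.2. These genes passed the filter only through HMC-1.2, so that part of the tally was fixed in advance.

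Correlations between libraries with the same replicate number ran from −0.42 to 0.6, so not every one was over 0.1 and the numbers were not taken to pair the libraries. As a hint from the data, 7 of 12 libraries were closest to their own number. With a replicate block the calls of 18p genes were 38, 40 and 35 in clone 2 against HMC-1.1, HMC-1.2 and clone 1, and 7, 7 and 1 in the other comparisons. The block changed no count of calls.

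Depth limits ENOSF1, PIEZO2, GNAL and LDLRAD4, which had few counts outside HMC-1.2, and ADCYAP1 and IMPA2, which had few in clone 2.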
